A study of Mus musculus with 6 samples.

Results

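The 10 genes described here are Ccrn4l (also Noct), Slc38a6, Wdr31, Kif24, Sgip1, Lrrc8d, Abhd2, Inadl (also Patj), Fmo1 and Pld1, out of 26567 genes that could be paired with listed transcripts. They were chosen because 1 transcript of each gene was far higher in Dnmt1 knockout than in heterozygous cells, so the difference between the groups made the choice and is given here as a description without a test. RNA came from sorted cap mesenchyme, the nephron progenitor tissue around the ureteric tips, of C57BL/6 mouse kidneys at embryonic day 18.5. All animals carried conditional Dnmt1 alleles and a Cre recombinase under the control of Six2, so the alleles were deleted in cells with Six2 activity and their descendants. The 3 libraries labelled Dnmt1 +/- are called heterozygous (HET) and the 3 labelled Dnmt1 -/- are called knockout (KO). Both groups had therefore lost at least 1 allele, and no library without deletion enters here.

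Dnmt1 copies methylation onto newly made DNA strands. In the mouse genome much of this methylation lies on transposable elements, which carry their own promoters, splice sites and ends of transcription. A copy that sits inside a gene can become an exon of one of its transcripts, so that a transcript annotated under the gene's name consists in part of sequence found at many other places in the genome. The host genes themselves have unrelated functions. Ccrn4l encodes nocturnin, a rhythmically expressed enzyme of the CCR4 nuclease family; Slc38a6 is a member of an amino acid transporter family; Wdr31 encodes a WD repeat protein. Kif24 is a kinesin of the centriole, Sgip1 an endocytic adaptor, Lrrc8d a subunit of volume-regulated anion channels and Abhd2 a serine hydrolase. Inadl is a PDZ scaffold of tight junctions, Fmo1 a flavin-containing monooxygenase and Pld1 a phospholipase D.

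Each leading transcript, meaning the transcript of a host with the largest rise in normalised CPM (counts scaled by TMM-adjusted library size), contained a long stretch of repeated sequence. A 31-mer, a run of 31 bases, was called repeated when it occurred at least 10 times in the NCBIM37 genome. The stretches were between 301 bases (Inadl-002) and 5092 bases (Ccrn4l-002) long and made up 11.8% (Lrrc8d-004) to 89.9% (Slc38a6-005) of the transcript. The repeated 31-mers in a stretch had a median of 199 (Fmo1-002) to 1107 (Slc38a6-005) genome copies. For comparison, 3.81% of the 74509 transcripts scored had at least 10% repeated 31-mers. All 9 other leading transcripts aligned to the stretch of Ccrn4l-002, with 85.4% to 99.1% identity in the longest alignment of each, and every leading transcript shared exact 31-mers with at least 7 of the 9 others. The opening bases of the repeated unit are shown for 6 hosts because they are the clearest sign that unrelated genes hold the same element. The 6 lower-case bases precede the unit and differ among the 6 hosts shown. In Ccrn4l they lie inside the repeated stretch, and Slc38a6, not shown, has the same 6 bases. The 24 capitals are the start of the unit, read in the direction of Ccrn4l-002 (NCBIM37 coordinates and strand).
Ccrn4l (chr3:51048799-51048828, plus strand): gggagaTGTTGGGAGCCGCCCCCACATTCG
Kif24 (chr4:41401762-41401791, plus strand): caaaaaTGTTGGGAGCCGCCCCCACATTCG
Pld1 (chr3:27968869-27968898, minus strand): tccctgTGTTGGGAGCCGCCCCCACATTCG
Wdr31 (chr4:62110505-62110534, minus strand): gtggaaTGTTGGGAGCCGCGCCCACATTCG
Inadl (chr4:98121095-98121124, plus strand): gcatgtTGTTGGGAGCCGCGCCCACATTCG
Sgip1 (chr4:102555416-102555445, minus strand): gtggtgTGTGGGAAGCCGCCCCCACATTCG

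Of the 10 hosts, 6 held the 24 capitals of Ccrn4l exactly, Wdr31 and Inadl matched at 23 of 24 positions and Sgip1 and Fmo1 at 22 of 24. The Wdr31 and Inadl openings are the same as each other, as are those of Sgip1 and Fmo1, which leaves 3 distinct openings among 10 genes. The exact word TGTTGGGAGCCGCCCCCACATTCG, searched on both strands, was found in 11 of 74519 paired transcripts (0.0148%), and 6 of those 11 are leading transcripts. The word was taken from Ccrn4l-002 where alignments of 8 other leading transcripts start on it, within 5 bases. Its presence in leading transcripts therefore follows from that choice. From general knowledge, and not from a repeat annotation, the capitals are the first bases of the long terminal repeat of intracisternal A particle elements, a family of mouse LTR retrotransposons that DNA methylation is known to keep silent. Within Ccrn4l-002, bases 1 to 181 and 4916 to 5096 were identical (100% over 181 bases), and the unit opened at base 4678.

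**Figure D1:**
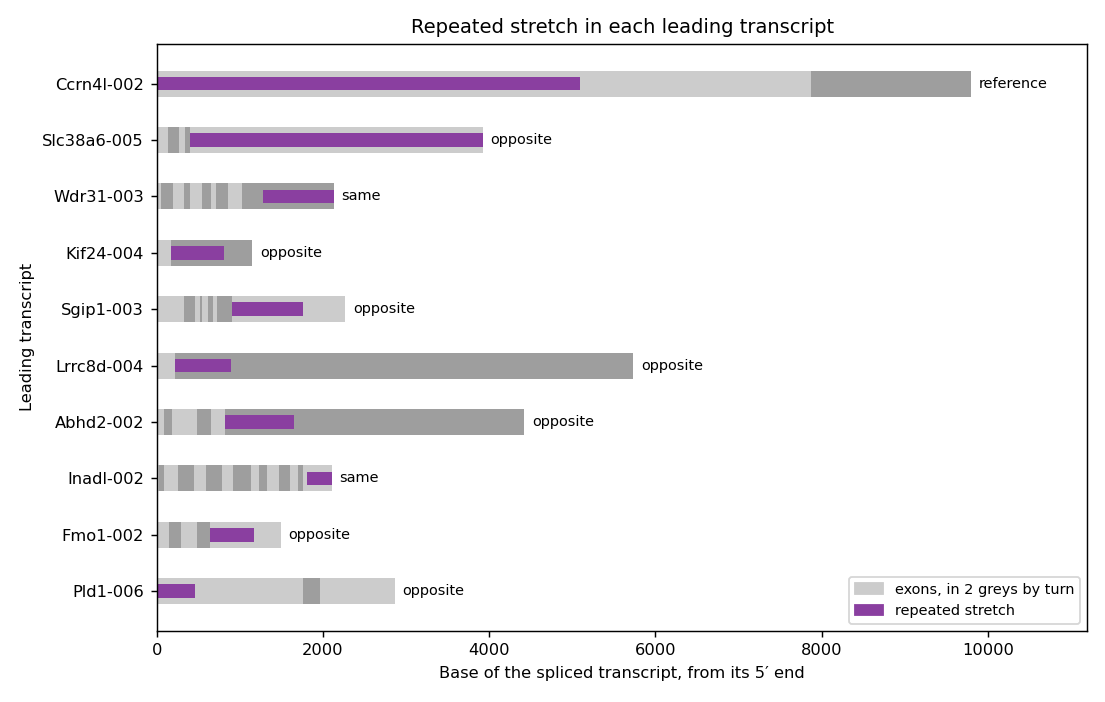
Exons (alternating greys) and the repeated stretch (purple) of each leading transcript, in bases of the spliced transcript from its 5′ end; the word at the right gives the direction of the stretch relative to Ccrn4l-002. The stretch stands at the start of Ccrn4l-002 and Pld1-006 and in the last exon of the other 8.

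**Figure D2:**
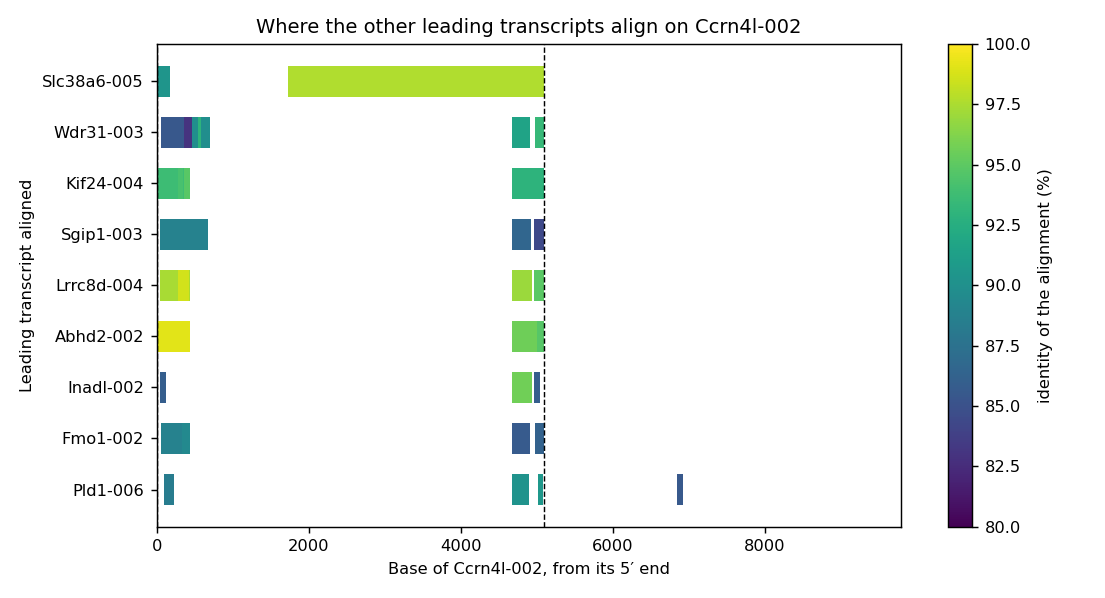
Position on Ccrn4l-002, in bases from its 5′ end, of each blastn alignment of the other 9 leading transcripts, coloured by percent identity, with dashed lines at the edges of its repeated stretch. Alignments gather at the 2 ends of the stretch, and Slc38a6-005 has the longest one, 3375 bases at 97.6% identity.

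The position of the stretches in the hosts was read from the annotation. In 9 of 10 genes the stretch was in an intron of the longest coding transcript; in Wdr31 it was beyond the end of it. The stretch overlapped annotated coding sequence of the leading transcript itself in Slc38a6, Inadl and Fmo1. No other annotated transcript of the host overlapped the stretch in 9 genes, the exception being Slc38a6, where Slc38a6-002 and Slc38a6-004 did. The stretch was in the last exon of 8 leading transcripts. In 6 of these, Slc38a6-005, Kif24-004, Sgip1-003, Lrrc8d-004, Abhd2-002 and Fmo1-002, the last exon opened with the stretch, so that a host exon was joined directly to repeated sequence, and in all 6 the element pointed opposite to its direction in Ccrn4l-002. In Wdr31-003 and Inadl-002 the transcript ran from host sequence into an element of the same direction as in Ccrn4l-002 and ended inside it. Ccrn4l-002 and Pld1-006, both annotated as retained introns, began within the element. The joins of 4 hosts are shown, with the last 10 bases of the upstream host exon in lower case and the first 20 bases of the element exon in capitals. Coordinates are those of the capitals (NCBIM37, strand of the host gene).
Kif24 (chr4:41402376-41402395, minus strand): ttgccctgagCTGATGAGTTCTGAATTCGG
Lrrc8d (chr5:106157742-106157761, plus strand): gggaggagagCTGATGAGTTCTGAATTCGG
Abhd2 (chr7:86486658-86486677, plus strand): ttcacctatgCTGATGAGTTCTGAATTCGG
Slc38a6 (chr12:74411977-74411996, plus strand): acctggaaagAGCTGTTATTAGACGCGTTC

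Kif24, Lrrc8d and Abhd2, on chromosomes 4, 5 and 7, were joined to the same 20 element bases, while Slc38a6, Sgip1 and Fmo1 each had other bases at the join. The stretches were richer in CpG, the dinucleotide that Dnmt1 maintains as methylated, than the rest of the same transcript in 9 of 10 cases. The ratio of observed to expected CpG had a median of 0.808 in the stretches and 0.345 in the remaining bases. The exception was Slc38a6-005, with 0.406 in the stretch and 0.748 in its short remainder.

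The libraries held 46741667 to 61585484 estimated counts, at which 3 counts correspond to between 0.0487 and 0.0642 CPM, a limit that covers counting error only. Dnmt1 was at 40, 52.4 and 51.7 normalised CPM in the HET and 20.9, 18.6 and 14.9 in the KO libraries, lower in every library labelled KO. Markers of the sorted tissue were present in all libraries, with the 8 cap mesenchyme genes summing to 1343 to 1541 CPM in HET and 1055 to 1281 CPM in KO, where 1 of 8, Cited1, fell (-0.90 ± 0.19 on the log2 scale, SE; Benjamini-Hochberg adjusted p of 0.0344 by edgeR), beside 1.92% of all genes tested. The summed markers of each of the 5 lists for other cells were highest in KO replicate 1. The 10 endothelium markers summed to 30.2 to 36.6 CPM in HET and to 197, 80.5 and 42.3 CPM in KO replicates 1 to 3, the 5 stroma markers to 149.8 to 193.8 CPM and to 391.1, 200.8 and 142.5 CPM. The 6 ureteric bud markers summed to 21.4 to 30.9 CPM in HET and to 58.5, 40.2 and 27.9 CPM in KO. One gene of each of 3 lists rose, where 4.92% of all genes tested did: Ret of the ureteric bud by 3.03 ± 0.53, Emcn of endothelium by 2.32 ± 0.45 and Lrp2 of the proximal tubule by 0.91 ± 0.22 on the log2 scale (SE; adjusted p of 0.00953, 0.0425 and 0.0437 by edgeR). All 3 were higher in every KO library than in every HET library, Ret at 0.233, 0.715 and 0.463 CPM in HET and 5.66, 4.28 and 1.73 CPM in KO. The part of these cells in the results below was not tested. None of the marker genes was at 0 in any library. In bulk libraries fewer cells of a type and less RNA per cell cannot be told apart.

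The 10 leading transcripts together took 0.108%, 0.0791% and 0.1% of all estimated counts in HET replicates 1 to 3 and 6.53%, 7.63% and 7.51% in KO replicates 1 to 3. The lowest KO share was thus many times the highest HET share. Fold changes of KO over HET lay between 19.0 (Fmo1-002) and 731.8 (Kif24-004), with a median of 101.2, and the fitted log2 fold changes had a median of 6.66 against -0.01 over all 50137 transcripts tested. The groups did not overlap for any of the 10. Over all transcripts tested, 11.4% had every KO library above every HET library, and 1.59% passed the test as higher and 0.199% as lower (edgeR at 0.05). Because the hosts were picked on this contrast, nothing is read from these counts.

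Ccrn4l-002, which starts within the element, had the most counts of the 10. It was at 344.3, 267.6 and 340.7 normalised CPM in HET and 30780, 38165 and 35334 CPM in KO, a log2 fold change of 6.77 ± 0.16 (SE). It lies at chr3:51044128-51055546, and its stretch at chr3:51044135-51049226 lies in an intron of Ccrn4l-001. On its own this transcript accounted for 2.97%, 3.33% and 3.30% of all counts in the 3 KO libraries. Pld1-006 (chr3:27968436-27985608) also starts within an element, but one that points opposite to that in Ccrn4l-002. The stretch inside the transcript was shorter, at 460 bases, and the length of the whole element was not measured. Pld1-006 was far less abundant, at 7.21, 7.06 and 12.0 CPM in HET and 366.6, 450.7 and 432.4 CPM in KO (log2 fold change 5.58 ± 0.26, SE).

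Among the 6 hosts spliced into the element, Slc38a6 had the most counts. Slc38a6-005 (chr12:74387882-74415507) was at 196.5, 152.9 and 192.0 CPM in HET and 13883, 19446 and 16976 CPM in KO, a log2 fold change of 6.54 ± 0.19 (SE). For this gene the estimated counts rose on more than 1 transcript. Slc38a6-004 went from 30, 16.1 and 16.1 CPM to 2767, 2825 and 3149 CPM and Slc38a6-002 from 2.30, 2.64 and 0.777 CPM to 18.2, 16.9 and 18.5 CPM, with log2 fold changes of 7.14 ± 0.33 and 3.22 ± 0.43 (SE). These are the 2 other host transcripts whose exons overlap the stretch. Reads from the stretch may be divided among them and Slc38a6-005, so these counts cannot tell how many of these transcripts rose.

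Kif24-004 had the largest fold change of the 10 leading transcripts, from a low start. Its level was 5.25, 2.46 and 3.54 CPM in HET and 2478, 2914 and 2834 CPM in KO (chr4:41401423-41411920; log2 fold change 9.52 ± 0.34, SE). Sgip1-003 (chr4:102431827-102555952) was already at 156.5, 126.6 and 146.8 CPM in HET and reached 3785, 4921 and 4514 CPM in KO (4.94 ± 0.14, SE).

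Lrrc8d-004 (chr5:106129885-106163257) was at 76.8, 41.0 and 61.2 CPM in HET and 1369, 1680 and 1608 CPM in KO. Abhd2-002 (chr7:86418141-86490257) was at 3.66, 2.78 and 3.01 CPM in HET and 567.4, 680.7 and 658.9 CPM in KO. Fmo1-002 (chr1:164770349-164790085) was at 36.5, 32.9 and 43.1 CPM in HET and 596.1, 816.9 and 722.9 CPM in KO. Their log2 fold changes were 4.70 ± 0.26, 7.66 ± 0.16 and 4.25 ± 0.16 (SE), so Fmo1-002 had the smallest rise of the 10 and Abhd2-002, which shares its join with Kif24-004 and Lrrc8d-004, the second largest.

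Both transcripts that end inside an element of the same direction as in Ccrn4l-002 lie on chromosome 4. Wdr31-003 (chr4:62109687-62129922) was at 138.9, 101.6 and 136.1 CPM in HET and 13401, 17787 and 16722 CPM in KO (log2 fold change 6.99 ± 0.20, SE). Inadl-002 (chr4:98062583-98121398) was at 5.84, 4.96 and 5.19 CPM in HET and 515.3, 663.1 and 625.1 CPM in KO (6.82 ± 0.15, SE). Together with Kif24 and Sgip1 these place 4 of the 10 hosts on chromosome 4.

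Within each group 1 library was the lowest for every leading transcript. HET replicate 2 was lowest in all 10 and KO replicate 1 was lowest in all 10, whether CPM were normalised or taken from library totals. KO replicate 2 was the highest for all 10 after normalisation, but for only 4 of 10 on library totals, where KO replicate 3 was highest for the other 6. The highest KO library was 1.18 to 1.40 times the lowest. Among HET libraries the spread was wider, with the highest 1.18 to 2.13 times the lowest. Both spreads were small beside the difference between the groups. KO replicate 1 is also the library with the highest sums of endothelium, stroma and ureteric bud markers.

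Estimated levels of different transcripts can be set side by side on the TPM scale, which takes length into account. Reads from other genome copies of the element may be counted on these transcripts. The order below is therefore one of estimates and need not be that of expression, which was not tested. In KO the means were 8883 TPM for Wdr31-003, 4860 for Slc38a6-005, 3943 for Ccrn4l-002, 3044 for Kif24-004, 2285 for Sgip1-003 and 579.4 for Fmo1-002. They were followed by Inadl-002 at 338.7, Lrrc8d-004 at 304.5, Pld1-006 at 168.7 and Abhd2-002 at 163.1 TPM. The ranges of Inadl-002 (305.8 to 356.6 TPM) and Lrrc8d-004 (282.5 to 319.2 TPM) overlapped across libraries, as did those of Pld1-006 and Abhd2-002, although within each of the 3 KO libraries the first of each pair was the higher. Other neighbours in the order had ranges that did not overlap. In HET, Sgip1-003 had the highest mean (85.3 TPM), followed by Wdr31-003 (80.2 TPM), and their ranges overlapped with Sgip1-003 higher in each of the 3 libraries.

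**Figure D3:**
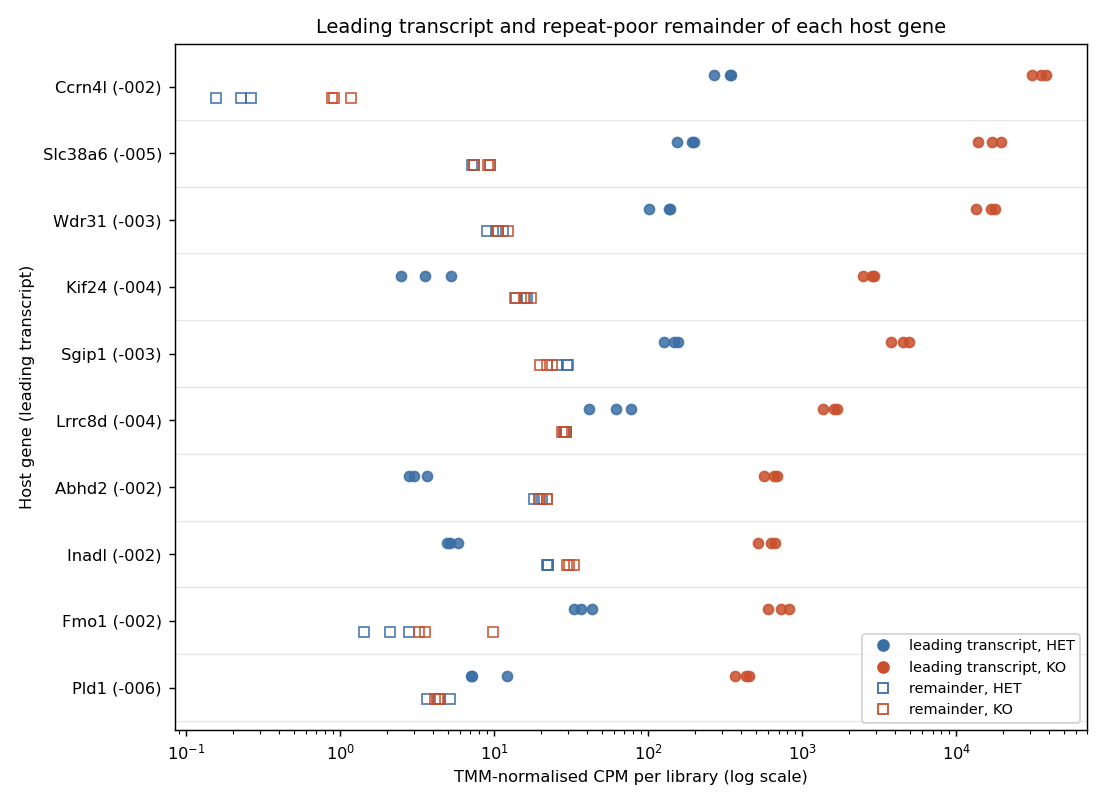
Normalised CPM per library (log scale) of each leading transcript (filled circles) and of the rest of the host gene without transcripts rich in repeated 31-mers (open squares), for 3 HET (blue) and 3 KO (orange) libraries. The KO circles lie far to the right of the HET circles in all 10 hosts, while blue and orange squares overlap in 6 hosts.

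The other transcripts of the hosts gave a different picture. The tables list 82 transcripts of the 10 genes, of 92 in the annotation, and 56 of them passed the filter on low counts. Besides the 10 leading and the 2 further Slc38a6 transcripts, 70 listed transcripts held fewer than 31 of the shared 31-mers, and 44 of those 70 were tested. Their log2 fold changes ran from -1.72 (Inadl-001) to 2.21 (Ccrn4l-001) with a median of 0.07, and 38 of 44 lay between -1 and 1. The other 26 were too low to test, with no group mean above 0.292 CPM.

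Summed without the transcripts that had at least 10% repeated 31-mers, and scaled with the gene table, 6 of 10 hosts had overlapping groups. The leading transcripts also hold exons outside the stretch. Reads that match such an exon and another transcript of the host may be divided between them. The remainders given here and below, whether higher, lower or unchanged, may therefore depend in part on the leading transcripts, which was not tested. The remainder of Abhd2, its coding transcript Abhd2-001, was at 20.3, 18.2 and 19.6 CPM in HET and 22.1, 22 and 19.7 CPM in KO (log2 fold change 0.14 ± 0.11, SE), while the leading transcript of the same gene was 201.8 times higher in KO. On the scale of the transcript table Abhd2-001 was at 17.4, 15.9 and 17.2 against 20, 20.4 and 17.6 CPM, where the groups just fail to overlap. The remainder of Kif24 was at 16.2, 13.9 and 15.7 CPM in HET and 15.6, 13.6 and 17.3 CPM in KO (log2 fold change 0.02 ± 0.13, SE). The remainder of Lrrc8d was at 28.2, 29.3 and 29.1 CPM in HET and 28.3, 27.4 and 29 CPM in KO (-0.03 ± 0.09, SE). Slc38a6, Wdr31 and Pld1 had remainders with log2 fold changes of 0.11 ± 0.18, 0.13 ± 0.15 and -0.04 ± 0.21 (SE).

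In 4 hosts the remainder did not overlap between groups, where over all genes tested 14.8% had every KO library above and 14.2% every KO library below the HET libraries. Sgip1 was lower, at 30, 25.7 and 29.6 CPM in HET and 19.7, 22.1 and 23.7 CPM in KO (log2 fold change -0.38 ± 0.11, SE), although its leading transcript was 30.7 times higher. Inadl was higher, at 22.4, 22.4 and 21.9 CPM in HET and 29.6, 32.7 and 30.4 CPM in KO (0.48 ± 0.10, SE). Within Inadl the estimates of coding transcripts moved apart. Inadl-006 went from 2.12, 1.55 and 1.95 CPM to 6.26, 9.83 and 6.33 CPM. Inadl-001, the longest, went from 4.12, 3.22 and 3.16 CPM to 0.421, 1.76 and 0.983 CPM. The span of Inadl-001 covers those of Inadl-006 and of the leading Inadl-002, so reads may be divided among them. Whether the transcripts themselves moved apart was not tested. Ccrn4l was nearly silent apart from its leading transcript, at 0.156, 0.262 and 0.228 CPM in HET and 1.18, 0.907 and 0.882 CPM in KO (2.15 ± 0.42, SE).

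For Fmo1, the fourth, the size of the rise depended on 1 library when only its leading transcript was left out. Its remainder was at 1.42, 2.81 and 2.11 CPM in HET and 9.78, 3.52 and 3.24 CPM in KO replicates 1 to 3. Every KO library was above every HET library, but the log2 fold change of 1.38 ± 0.47 (SE) fell to 0.68 without KO replicate 1. The 5 proximal tubule markers summed to 66.9 CPM in that library, against 35.6 and 26.5 CPM in the other KO and 23.3 to 31.5 CPM in the HET libraries, and their part in the Fmo1 value was not tested.

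The share of each gene's counts held by its leading transcript shows how far the gene-level value is set by it. In HET the mean share ranged from 15.7% ± 1.45 for Abhd2, 21.5% ± 5.39 for Kif24 and 21.6% ± 1.60 for Inadl to 99.9% for Ccrn4l (SD, n = 3). The leading transcript thus already held more than 68% of the counts in HET in 7 hosts, among them Fmo1 (95.2% ± 1.96), Wdr31 (93.2% ± 1.86) and Sgip1 (85.3% ± 0.549). In KO it was 84.9% ± 2.07 for Slc38a6 and between 95.5% ± 0.403 (Inadl) and 100% (Ccrn4l) for the other 9 hosts. A table of gene sums would therefore list Kif24 as rising from 18.8 ± 2.71 to 2904 ± 234.2 CPM and Abhd2 from 22.0 ± 1.53 to 690.1 ± 60 CPM (SD, n = 3), with nearly all of the added counts on the transcript that holds the element.

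**Figure D4:**
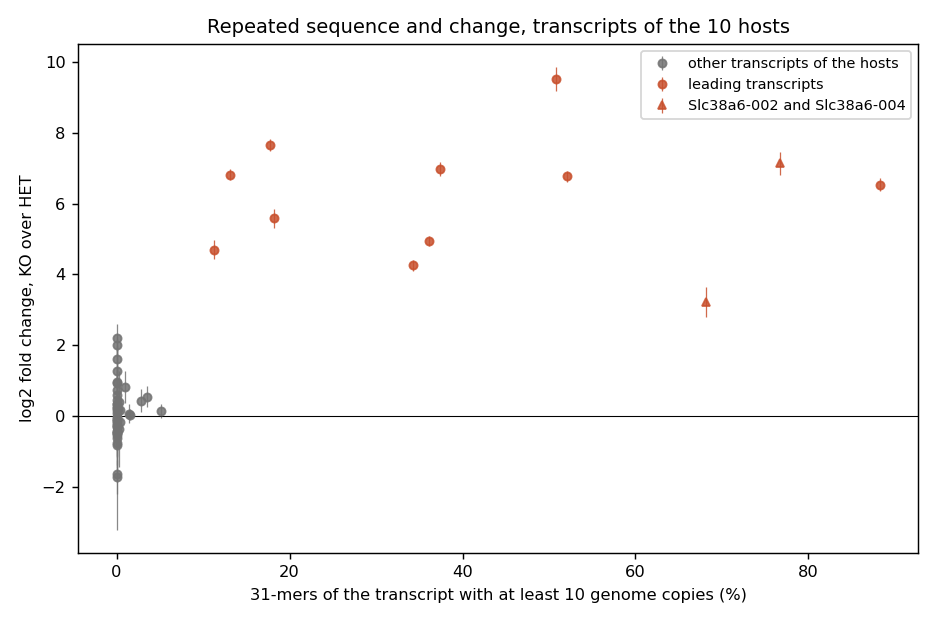
Share of 31-mers with at least 10 genome copies (x axis, percent) and log2 fold change of KO over HET with its SE (y axis) for the 56 tested transcripts of the 10 hosts. Transcripts with under 10% repeated 31-mers (grey) lie around 0, and the 10 leading transcripts and 2 further Slc38a6 transcripts (orange) lie above 3.

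Transcripts of other genes that carry the same sequence were examined next, a list made after the stretches had been seen. Its 31-mers come from the leading transcripts, which were themselves chosen by the difference between KO and HET. Of the paired transcripts, 24 from other genes held at least 31 of the 3449 31-mers that 2 or more leading transcripts share. All 24 were tested, and by edgeR 15 were higher in KO, 0 were lower and 9 did not pass. That is 62.5% higher, where 1.59% of all transcripts were, and the median log2 fold change was 2.11. Reads that match both a leading transcript and one of these are divided by kallisto, so their values are not independent of the leading transcripts. A rise may thus be partly built in, and the counts for this list are given as description only. Gm11127-001 went from 1.14, 1.27 and 1.46 CPM to 1160, 1556 and 1437 CPM, a rise of 10.07 ± 0.19 on the log2 scale (SE). The pseudogene Gm10040-201 went from 20.6, 16.8 and 23.7 CPM to 2293, 3189 and 2866 CPM, and Zfp575-201, from a zinc finger gene, from 0.877, 1.09 and 0.904 CPM to 144.2, 196.4 and 180.2 CPM. Every KO library was above every HET library in 20 of the 24, where 11.4% of all transcripts had that order. Of the 9 that did not pass, Cpne8-005 had a log2 fold change of 3.86 ± 0.71, Adamts13-002 of 1.57 ± 0.38 and Me3-007 of 1.25 ± 0.28 (SE), all with groups that did not overlap. At the low end, Tmed7-002 was at 49.0, 36.4 and 40.2 CPM in HET and 46.4, 41.7 and 44.5 CPM in KO, and Dync1i2-010 had a log2 fold change of -0.03 ± 0.19 (SE). These examples were chosen after their values were seen.

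Repeated sequence of any kind was also counted. Of 1367 tested transcripts with at least 10% repeated 31-mers, leading transcripts left out, 5.56% rose, compared with 1.30% of 39929 transcripts under that limit. Transcripts that share 31-mers with the leading ones, such as Slc38a6-004, Slco1a6-004 and Stx18-007, were not left out. Their values are not independent of the leading transcripts. The median log2 fold change was -0.01 in the first and 0 in the second group.

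A search for the same pattern elsewhere gave 10 transcripts of other genes that had a log2 fold change of at least 3, at least 5 normalised CPM in KO and a remainder of the gene within 0.5 on the log2 scale, out of 135 that met the first 2 conditions. The likeness is measured over the same 6 libraries that define it. The most abundant was Tulp4-002, at 11.6, 16.6 and 7.54 CPM in HET and 409.8, 433.4 and 417.2 CPM in KO, followed by Slco1a6-004, Stx18-007, Tcp11l1-003 and Vcan-006 with KO means of 401.6, 175.1, 43.8 and 37.3 CPM. Slco1a6-004 and Stx18-007 share 31-mers with the leading transcripts, whereas Tulp4-002, Tcp11l1-003 and Vcan-006 do not. Tulp4-002 and Vcan-006 had no repeated 31-mers among those sampled. Vcan-006 varied between KO libraries, at 52.3, 49.5 and 10.2 CPM.

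Relatives of the hosts by gene family were compared with the hosts themselves. Of 35 relatives 32 were tested, of which 3 rose, 1 fell and 28 did not pass, with a median log2 fold change of -0.06, where 4.92% of all genes tested rose and 1.92% fell (edgeR). Slc38a4, an amino acid transporter, rose from 141, 139 and 155 CPM to 206, 218 and 213 CPM (0.55 ± 0.08 on the log2 scale, SE; adjusted p of 0.00145 by edgeR), and its call held without each library in turn. Kif2b, a kinesin of the spindle, was at 0 in every HET library and at 0.318, 0.617 and 0.275 CPM in KO, at least 6.90-fold higher when every HET library is set to 3 counts (adjusted p of 0.00619 by edgeR, 0.0536 without KO replicate 2, and 0.0549 with limma on unfiltered TPM). Lrrc8b, another anion channel subunit, rose by 0.65 ± 0.16 and Cnot6l, a deadenylase, fell, at -0.45 ± 0.10 on the log2 scale (SE; adjusted p of 0.0341 and 0.0273 by edgeR). Lrrc8b lost its call without HET replicate 2 or 3 or any 1 of the KO libraries (adjusted p up to 0.103, edgeR). It also missed the threshold on library totals (0.0742, edgeR) and with limma on TPM (adjusted p 0.161 to 0.219). Cnot6l lost its call without KO replicate 1 or 2 (adjusted p up to 0.136, edgeR).

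The nearest protein-coding gene on each side of each host was measured to see whether change extended past the host. By edgeR, 2 of the 15 neighbours that could be tested, out of 20, were higher, 0 were lower and 13 missed the threshold, beside 4.92% higher and 1.92% lower among all genes tested. Their median log2 fold change was 0.21. Rnf183, a ubiquitin ligase gene 13401 bases from Wdr31, rose from 0.778, 0.715 and 0.243 CPM to 6.05, 6.79 and 5.29 CPM (3.37 ± 0.38 on the log2 scale, SE; adjusted p of 0.000392 by edgeR), and its call held without each library in turn. Bspry, on the other side of Wdr31, had a log2 fold change of 0.27 ± 0.32 (SE). Tnik, a kinase gene 129852 bases from Pld1, rose from 3.27, 3.40 and 2.69 CPM to 6.30, 5.44 and 5.78 CPM (0.90 ± 0.20, SE; adjusted p of 0.0245 by edgeR), but missed the threshold without any 1 of the 6 libraries (adjusted p 0.0517 to 0.0956, edgeR), with the replicate block (0.0602, edgeR) and with limma on TPM (0.0821 to 0.0998). The neighbours that did not pass and are named here were chosen after their values were seen. Fmo2, which is also a relative and lies 7769 bases from Fmo1, was at 1.34, 3.74 and 1.42 CPM in HET and 10.5, 8.75 and 3.89 CPM in KO, with no overlap (1.82 ± 0.52 on the log2 scale, SE; adjusted p of 0.0983 by edgeR). Elf2, 3587 bases from Ccrn4l, was at 37.2, 38.0 and 36.9 CPM in HET and 35.8, 37.2 and 38.2 CPM in KO. Trmt5, 68 bases from Slc38a6, and Ubap1 and Nudt2, 220 and 264 bases from Kif24, had log2 fold changes of 0.04 ± 0.10, 0.03 ± 0.09 and 0.08 ± 0.09 (SE) and did not pass.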

How the data were processed

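RNA-seq was measured in 6 libraries, 3 per group, prepared from 50 ng of RNA with an ultra low input protocol, per the labels. For every library the authors deposited estimated counts, TPM, transcript length and effective length (in bases) for 96626 transcripts. The tool kallisto and the build mm10 are named in the submitters' processing notes. For its version, the transcript index, read length and strandedness nothing is given in the sources used; sense and antisense reads cannot be told apart. Kallisto assigns a read to listed transcripts it is compatible with, so reads from other genome copies of a repeat may be counted on a listed one; their share was not tested.

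Transcripts were paired by ID with GENCODE vM1 on NCBIM37: 74519 matched, 26567 genes, 92.4% to 92.82% of counts. Coordinates and sequences are NCBIM37 and may differ from the transcripts the authors indexed, which had the annotated length in 88.89% of pairs; Fmo1-002 and Abhd2-002 differ by 15 and 1 bases. Estimated counts were rounded and tested per transcript (50137 after filterByExpr) and summed per gene (16989) with edgeR 4.0.16 (robust quasi-likelihood test, TMM, Benjamini-Hochberg adjustment at 0.05, R 4.3.3). The biological coefficient of variation was 0.403 for transcripts and 0.210 for genes. Genome copies were counted for every 31-mer of the host transcripts and for 1 in 8 of the others. Leading transcripts were aligned with blastn 2.17.0. Repeated runs up to 100 bases apart were joined into a stretch. The pipeline was tested on simulated data, in which transcripts varied less between libraries than here and shared no reads.

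The hosts, lists and tests were chosen with earlier results of these data known. The rule for names took all hosts and their transcripts, called relatives and neighbours, and up to 5 transcripts of similar pattern; most host transcripts are given as ranges and counts, and other names were chosen after their values were seen. The remainder without repeat-rich transcripts and the list by shared 31-mers were added after the data were seen. The labels do not say that libraries came from separate embryos, and a p-value here covers only the spread among these libraries, which may be technical. No 2 libraries agreed within sampling noise (chi-square per degree of freedom at least 13.63). Alternatives were other normalisations, filters, DESeq2 1.42.0, limma 3.58.1 on log2(TPM + 1) and log2(TPM + 0.1), a replicate block and each library left out.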

Additional observations from a re-analysis of the deposited data

How the results depend on the processing

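The median log2 fold change of the leading transcripts (6.66) was 6.42 on library totals and 6.29 with limma on log2(TPM + 1), with or without a filter, and 6.55 to 6.76 without each library. For the hosts without only their leading transcript (0.13) it was 0.01 (either pseudocount, filtered) and 0.02 (unfiltered) on the TPM scale, 0.10 to 0.18 without each library, and 0.12 without all repeat-rich transcripts, a version not run under the other settings. The HET median share of the leading transcript was 69.4% by TPM, and 76.6% to 79.4% without each HET library. The median of all transcripts was -0.011, and -0.237 on library totals. Of 150 values of single leading transcripts under alternatives, none changed sign (4.01 to 9.85), and of 150 whole-gene values none did.

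Transcripts higher (795) and lower (100) were 2028 and 706 with DESeq2, 525 and 398 with limma on log2(TPM + 1), 488 and 348 on log2(TPM + 0.1), and 363 to 602 and 37 to 65 without each library; library totals gave 416 lower. Genes higher (836) and lower (327) were 1315 and 624 with DESeq2, 457 and 761 with limma on log2(TPM + 1), 454 and 756 on log2(TPM + 0.1), 548 higher without a TPM filter, and 526 to 916 and 116 to 272 without each library; library totals gave 1883 lower. Relatives higher (3) and lower (1) were 6 and 2 with DESeq2, 1 higher with limma unfiltered, 5 lower on library totals, and 1 to 4 and 0 to 1 without each library. Neighbours higher (2) were 1 with limma unfiltered and 1 to 2 without each library. In deviations from their group means, same-numbered libraries correlated at -0.058, -0.048 and -0.031, and other pairs at -0.168 to 0.204. Deviations from a mean of 3 libraries constrain each other, so these values cannot decide whether the samples were paired. The replicate block gave 200 higher and 12 lower transcripts. Transcripts near 3 counts cannot be compared at this depth.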
